A study of Homo sapiens with 5 samples.

Results

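Untreated MDA-MB-468 cells sampled after 72 h were compared with untreated cells of the same line sampled at 0 h. The cells were all barcodes with 1000 or more detected genes and at most 20% of their unique molecular identifiers (UMIs) from mitochondrially encoded genes. These were 2920 cells at 72 h and 3705 at 0 h, together 6625 of the 15095 cells that passed the same limits in the 5 libraries of the series. The limits lay in a sparse range: 8 barcodes at 0 h and 30 at 72 h had from 500 to under 1000 detected genes, and 0 and 18 had from 1000 to under 1500. For the mitochondrial share, 58 and 86 barcodes lay between 10% and 20%, and 1 and 3 between 20% and 30%.

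MDA-MB-468 is an established human breast cancer line of basal type that lacks the oestrogen and progesterone receptors and carries an amplified EGFR gene. The study treated it with PF0517515, an inhibitor of acetyl-CoA carboxylase, the enzyme that commits acetyl-CoA to fatty acid synthesis. Both groups described here are untreated, without vehicle named in the labels, and differ by the label of time alone, 0 h or 72 h. The other 3 libraries held cells after 6 h of PF0517515, after 72 h of PF0517515, and in recovery after 72 h of PF0517515. The labels do not say how long the 0 h cells had been plated, how dense either culture was, or whether medium was renewed. Each group is 1 library, so no spread between samples can be given, no test was made, and every interval below covers counting error only. Time in culture and any difference of plate, day or library preparation cannot be told apart.

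Cultured epithelial cells that stay on 1 plate multiply, contact each other and use up the nutrients of their medium. Amino acid shortage and unfolded protein in the endoplasmic reticulum (ER) are both sensed by kinases that phosphorylate eIF2α, after which the transcription factor ATF4 is translated and drives genes for amino acid synthesis, transport and tRNA charging. Entry into S phase depends on E2F factors, which switch on the enzymes of DNA replication, while ribosome assembly and glycolysis supply growing cells with protein and carbon.

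The labelled line was checked against its markers. EGFR stood at 2477 CPM (counts per 1000000 UMIs of the library) at 0 h and 2570 CPM at 72 h, and KRT18, an epithelial keratin, at 3475 and 2981 CPM. ESR1, the oestrogen receptor, stood at 9.56 and 10.1 CPM. Of 24 markers of blood, endothelial, stromal, liver and islet cells, 11 were at 0 UMIs in each library, PTPRC had 48 and 103 UMIs in total, and their summed level was 35.6 CPM at 0 h and 108 CPM at 72 h. Most of that sum was CD14, a co-receptor for bacterial lipopolysaccharide, at 25.5 and 92.3 CPM. The median cell held 28980 UMIs and 5895 detected genes at 0 h, and 29232 UMIs and 6249 genes at 72 h. Mitochondrially encoded genes made up 5.63% and 6.20% of all UMIs, and ribosomal protein genes 18.7% and 16.7%. The libraries shared 2 cell barcodes.

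The untreated culture at 72 h differed from that at 0 h by more than 2-fold in 655 of 9303 genes compared, which is 7.04%. A gene was compared if its summed UMIs reached 10 CPM in at least 1 library. Of these, 517 genes (5.56%) were more than 2-fold higher at 72 h and 138 (1.48%) more than 2-fold lower, and 44 and 13 genes passed 4-fold. The median over all 9303 was 0.10 on the log2 scale, with 58.9% of genes higher. The balance of the directions depended on the scaling. Under the trimmed mean of M values the counts were 244 higher and 285 lower, and under median-of-ratios scaling 216 and 345, since these scalings moved the median of all genes by -0.25 and -0.30. Each of these scalings shifts every ratio by 1 constant of less than 2-fold, so the direction of a gene past 2-fold could not change. For lists a value under another scaling is given where it differs in direction. A gene under 10 CPM at 0 h was compared only through its level at 72 h and so had to be higher, and the reverse held for genes under it at 72 h. The former included 6 each of the PERK-ATF4 and the cell cycle inhibitor list and 5 of the interferon list described below. Also among them were 3 each of the NRF2 and the quiescence-linked list and 1 of the calprotectin list. Genes compared only through 0 h included 3 each of the basal and the integrin list and 2 each of the S phase and the cholesterol list.

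**Figure D1:**
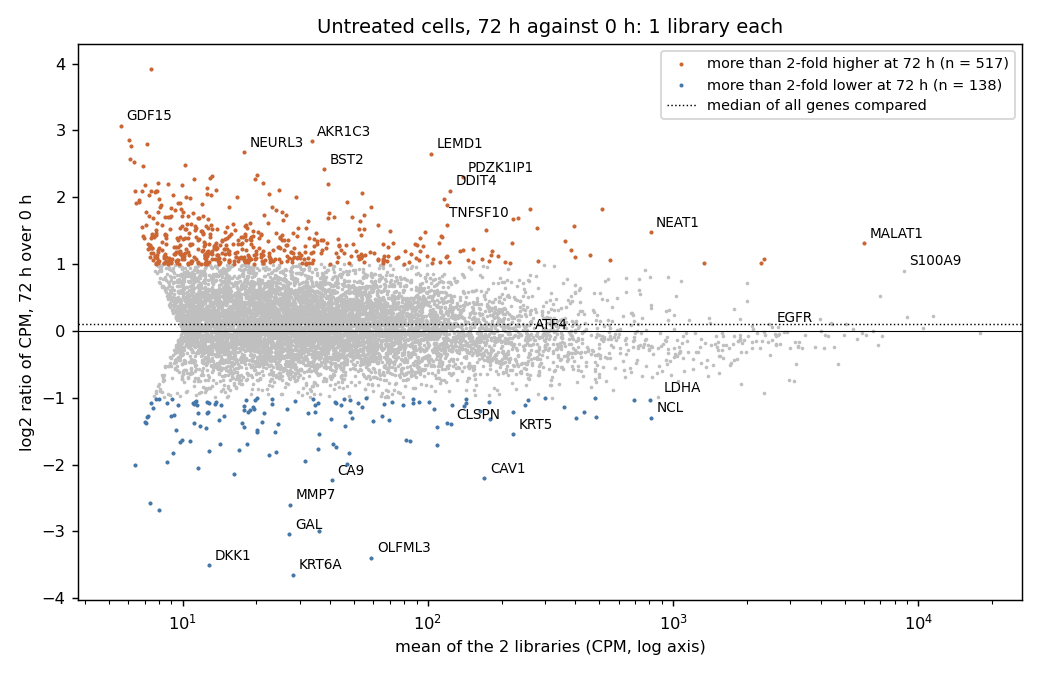
Each point is 1 of the 9303 genes compared, with the mean level of both libraries (CPM, log axis) against the log2 ratio of CPM at 72 h over 0 h; orange and blue mark genes past 2-fold. More genes lie past 2-fold above 0 (517) than below (138), and KRT6A, DKK1 and OLFML3 have the lowest labelled ratios.

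The highest ratio among genes of at least 20 CPM in either library belonged to AKR1C3, an aldo-keto reductase of steroid and prostaglandin metabolism (chr10:5035354-5107686, + strand, GRCh38). It stood at 8.25 CPM at 0 h and 58.9 CPM at 72 h, 7.15-fold higher (95% interval 6.67 to 7.67). NEURL3, a ubiquitin ligase, stood at 4.84 and 30.9 CPM. LEMD1, a cancer-testis antigen (chr1:205381378-205457091, - strand), stood at 28.2 CPM at 0 h and 177 CPM at 72 h, and was detected in 12.8% and 55.6% of cells thinned to 5000 UMIs each. BST2, or tetherin, which holds budding virus at the cell surface (chr19:17402939-17405648, - strand), stood at 11.9 and 63.9 CPM, 5.36-fold higher (5.05 to 5.69). PDZK1IP1, a small membrane protein of epithelia, stood at 46.8 and 230 CPM and was detected in 19.5% and 62.7% of thinned cells. DMGDH, ADGRE2, DENND2D, MISP3, CES1, DEPP1, LY6E-DT, DDIT4, PARD6B and ZNF436-AS1 completed the highest 15 when LINC and clone-style names were left out, with log2 ratios of 2.05 to 2.34.

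The lowest ratio belonged to KRT6A, a keratin of activated and wound-edge keratinocytes (chr12:52487174-52493257, - strand). It stood at 52.2 CPM at 0 h and 4.15 CPM at 72 h, 12.6-fold lower (11.3 to 13.9), and was detected in 16.1% and 1.39% of thinned cells. DKK1, a secreted WNT antagonist (chr10:52314296-52318042, + strand), stood at 23.5 and 2.07 CPM, 11.4-fold lower (9.83 to 13.2). OLFML3, a secreted olfactomedin-like protein, stood at 108 and 10.2 CPM, and GAL, the neuropeptide galanin, at 48.7 and 5.92 CPM. These 4 genes were each detected in under 5% of thinned cells at 72 h, the highest being OLFML3 at 4.37%. MMP7, or matrilysin, CA9, a carbonic anhydrase, and CAV1, the coat protein of caveolae, were 6.07-fold, 4.71-fold and 4.60-fold lower. The remainder of the lowest 15 were PPP1R14B-AS1, C1orf53, ODC1, KRT6B, AVEN, RBM3, CPA4 and TFCP2L1, with log2 ratios from -2.99 to -1.78. KRT6A and KRT6B, like AKR1C1 to AKR1C3, are close paralogs, so reads could have been split between them. Antisense transcripts such as PPP1R14B-AS1 depend on strand being used in counting, which the sources used here do not give.

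Genes of the integrated stress response were higher at 72 h. In the PERK-ATF4 list, 27 of 30 genes were compared, 26 of them were higher and 1 lower, and 9 were more than 2-fold higher (beside 5.56% of all genes compared). Of the 27, 6 were compared only through their level at 72 h and so had to be higher. ALDH1L2, SLC7A11 and GDF15, given below, were under 10 CPM at 0 h, so their direction was fixed in this way. The median log2 ratio was 0.77, beside 0.10 over all genes, and 0.48 with 21 of 25 higher under the trimmed mean of M values. ATF4 itself, which is controlled mainly at translation, stood at 266 CPM at 0 h and 256 CPM at 72 h. Genes known as its targets were higher. DDIT4, an inhibitor of mTORC1, stood at 46.6 and 200 CPM, 4.28-fold higher (4.15 to 4.42). DDIT3, which encodes the pro-apoptotic factor CHOP, stood at 18.5 and 59.7 CPM, 3.22-fold higher (3.06 to 3.39). NUPR1, a stress-inducible chromatin protein, stood at 111 and 357 CPM, and ALDH1L2, a mitochondrial folate enzyme, at 9.85 and 32.9 CPM. SESN2, a brake on mTORC1, was 2.40-fold higher, and SLC7A11, the cystine transporter, stood at 6.54 and 19.6 CPM. The serine synthesis genes PHGDH and PSAT1 were higher by less, 0.68 and 0.72 on the log2 scale. GDF15, a stress cytokine, stood at 1.20 and 10.1 CPM. It was detected in 0.378% of thinned cells at 0 h and 2.29% at 72 h with up to 12 UMIs in 1 cell, so its sum rested on few cells. Its log2 ratio of 3.07 was 4.13 in cells of 20 to 60 nuclear-retained UMIs and 1.46 in cells low in both cell cycle sums.

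The cytosolic tRNA synthetases, which load amino acids onto tRNA, had 10 of 12 genes higher, none past 2-fold, and a median of 0.57. WARS stood at 20.6 CPM at 0 h and 39.9 at 72 h, SARS at 145 and 251, CARS at 47.2 and 80.9 and GARS at 150.2 and 249.5. TARS and NARS were the exceptions, at 156 and 146 CPM and at 114 and 108 CPM. The ER chaperone and ER-associated degradation list was higher by less, with 24 of 26 genes higher and a median of 0.24. Past 2-fold were 2 genes, a share near the 5.56% of all genes compared, of which 58.9% were higher at all. Under the trimmed mean of M values 13 of the 26 were higher, and under median-of-ratios scaling the median was -0.05. HERPUD1, a degradation factor that also answers ATF4, stood at 41.3 and 103 CPM, and XBP1, the transcription factor spliced by IRE1, at 82.5 and 189 CPM. HSPA5, the chief ER chaperone BiP, stood at 74.8 and 130 CPM, 1.73-fold higher (1.68 to 1.78).

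Promoter sequences were read for these genes because ATF4 binds, with a C/EBP partner, a composite element whose letters can be searched. Windows of 250 bases before to 50 bases after the start were taken from RefSeq on GRCh38.p14, 1 window per gene, and searched on both strands for TGATGNAA. Of 24 PERK-ATF4 genes with a window, 4 held it (16.7%), as did 6 of 10 tRNA synthetases (60%), 1.62% of the 7648 compared genes with a window and 3.67% of all 27305 windows. Among genes more than 2-fold higher the share was 2.17%. The 6 synthetases were AARS, CARS, IARS and MARS, which were higher at 72 h, and NARS and TARS, which were not. The 4 PERK-ATF4 genes were ATF3 and SLC3A2, and ASNS and CHAC1, which were under the expression minimum in both libraries. The 200 bases before the start of ATF3 (chr1:212565207-212565406, + strand) and AARS (chr16:70289507-70289706, - strand) are shown with the match in capitals, 191 and 187 bases before the start.
ATF3: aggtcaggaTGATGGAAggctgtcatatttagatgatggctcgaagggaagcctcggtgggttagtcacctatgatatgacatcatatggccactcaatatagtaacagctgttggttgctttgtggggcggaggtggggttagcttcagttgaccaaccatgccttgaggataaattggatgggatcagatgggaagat
AARS: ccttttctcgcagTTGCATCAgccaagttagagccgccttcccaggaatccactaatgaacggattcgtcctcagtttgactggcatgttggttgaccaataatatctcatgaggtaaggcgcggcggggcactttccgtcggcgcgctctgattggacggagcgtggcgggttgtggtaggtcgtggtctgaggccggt
ATF3, a stress-induced repressor, stood at 24.0 CPM at 0 h and 45.5 at 72 h, and AARS, the alanyl-tRNA synthetase, at 32.0 and 51.5 CPM. A match of letters is a description and does not show that a factor was bound.

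DNA replication genes were lower at 72 h without exception among those compared. All 43 S phase genes were lower, 8 of them by more than 2-fold (beside 1.48% of all genes compared), with a median of -0.62. Of the 43, 2 were compared only through their level at 0 h and so had to be lower, UHRF1 among them. CLSPN, a replication checkpoint adaptor, stood at 180 CPM at 0 h and 68.2 CPM at 72 h, 2.64-fold lower (2.56 to 2.71). CCNE2, a cyclin of the G1 to S transition, was 2.86-fold lower, and UHRF1, which carries DNA methylation through replication, 2.52-fold lower. MCM5, a subunit of the replicative helicase, stood at 48.5 and 20.9 CPM, and PCNA, the sliding clamp, at 278 and 178 CPM. RRM2, a ribonucleotide reductase subunit, stood at 190 and 121 CPM. POLD3, CASP8AP2 and PRIM1 were each at -0.08 on the log2 scale. Both other scalings lower every ratio by 1 constant, so all 43 stayed lower under them by construction.

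Mitosis genes did not share this pattern. Of 54 G2/M genes, 30 were higher and 24 lower, none past 2-fold, with a median of 0.05. Under the trimmed mean of M values 43 of the 54 were lower and the median was -0.18. Within the list, PSRC1, NUF2, CENPA and NEK2, genes of kinetochore and spindle, were 0.63 to 0.71 higher on the log2 scale. MKI67, the proliferation marker, had the lowest ratio of the list, at 174 CPM at 0 h and 119 CPM at 72 h.

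**Figure D2:**
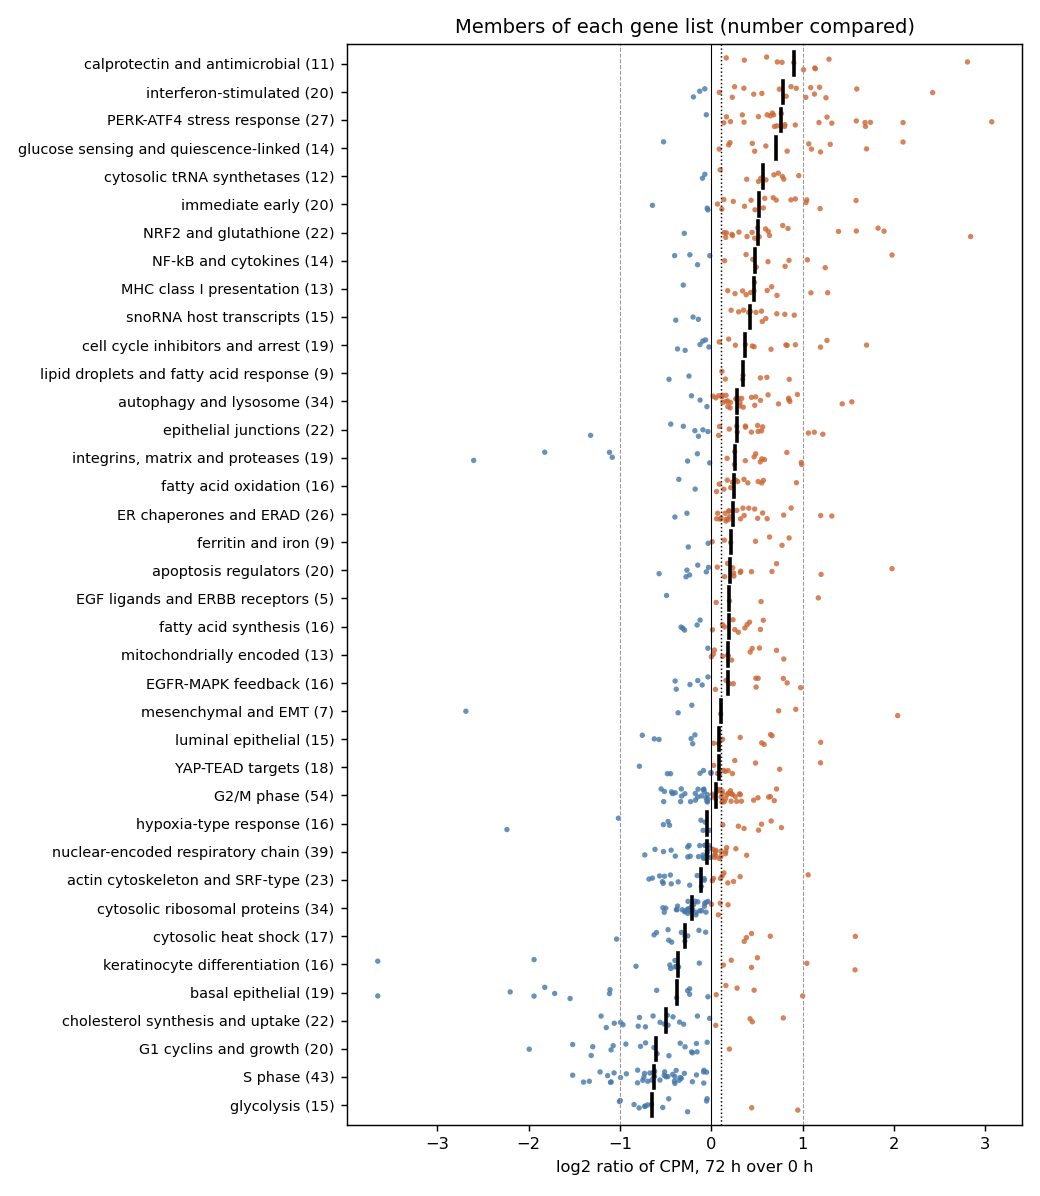
Each point is 1 compared gene of a list, placed by its log2 ratio of CPM at 72 h over 0 h (orange higher, blue lower); black bars are medians, the dotted line the median of all genes compared and dashed lines 2-fold. The calprotectin, interferon and PERK-ATF4 lists lie to the right with medians of 0.90, 0.78 and 0.77, and the glycolysis, S phase and growth lists to the left with medians of -0.65, -0.62 and -0.61.

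The same difference was seen cell by cell. Here 5000 UMIs were drawn at random from each cell, which left 3700 cells at 0 h and 2885 at 72 h, without 5 and 35 cells that held fewer. The median cell held 16 S phase UMIs at 0 h and 9 at 72 h, and 20 and 17 G2/M UMIs. Cut at the pooled medians of 12 S phase and 19 G2/M UMIs, 19.8% of cells were low in both sums at 0 h (18.5% to 21.1%) and 40.8% at 72 h (39.0% to 42.7%). Cells high in S phase UMIs alone made up 29.9% and 13.7%, and cells high in both 32.8% and 19.7%. Cells high in G2/M UMIs alone were more frequent at 72 h, 17.5% against 25.8%. These classes are ranges of a sum and not cell cycle phases. The share of cells above the 0 h 90th percentile was 9.62% and 1.14% for the S phase sum, but 9.92% and 11.3% for the G2/M sum.

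Promoters of the S phase genes were searched on both strands for 2 E2F-type strings, TTTGGCGC and TTTCCCGC. Of 32 genes with a window, 13 held at least 1 (40.6%), beside 4.05% of compared genes with a window and 2.31% of all windows. The share was 8.11% among genes more than 2-fold lower and 2.44% among genes more than 2-fold higher. The 200 bases before the start are shown for GINS2 (chr16:85688955-85689154, - strand), UHRF1 (chr19:4909301-4909500, + strand) and PCNA (chr20:5126623-5126822, - strand), 3 genes of the list that hold the second string on the reverse strand, in capitals.
GINS2: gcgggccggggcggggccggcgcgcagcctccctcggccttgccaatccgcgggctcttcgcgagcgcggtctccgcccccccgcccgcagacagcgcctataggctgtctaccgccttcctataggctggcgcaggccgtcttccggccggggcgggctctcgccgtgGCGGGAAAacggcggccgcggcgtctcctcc
UHRF1: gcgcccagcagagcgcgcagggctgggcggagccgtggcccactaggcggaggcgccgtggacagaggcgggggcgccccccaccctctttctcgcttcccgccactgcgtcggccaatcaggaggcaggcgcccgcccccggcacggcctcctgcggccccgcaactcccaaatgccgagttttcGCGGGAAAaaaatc
PCNA: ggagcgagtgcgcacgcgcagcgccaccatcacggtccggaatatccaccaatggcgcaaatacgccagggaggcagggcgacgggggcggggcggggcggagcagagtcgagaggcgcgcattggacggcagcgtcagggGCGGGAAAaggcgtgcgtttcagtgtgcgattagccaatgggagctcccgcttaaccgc
The match began 31, 14 and 59 bases before the start. GINS2, a helicase cofactor, was 2.14-fold lower at 72 h, from 90.4 to 42.3 CPM.

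Growth genes were lower with the replication genes. In the list of G1 cyclins and growth, 19 of 20 genes were lower, while 58.9% of all genes compared were higher. By more than 2-fold 6 were lower (beside 1.48% of all genes compared), and the median was -0.61. Of the 20, 1 was compared only through its level at 0 h and so had to be lower. The trimmed mean of M values lowers every ratio, so the 19 stayed lower by construction, and CCND1 also fell below 0. ODC1, the first enzyme of polyamine synthesis, stood at 74.8 CPM at 0 h and 18.8 CPM at 72 h, 3.98-fold lower (3.78 to 4.19). The nucleolar proteins NCL and NOP56, which serve ribosome assembly, stood at 1154 and 469 CPM and at 255 and 103 CPM. The median thinned cell held 30 UMIs of this list at 0 h and 17 at 72 h, and 1 of 2885 cells at 72 h exceeded the 0 h 90th percentile of 42 UMIs. MYC, which drives many of these genes, stood at 88.6 and 85.8 CPM. CCND1, cyclin D1, was the member that was higher, at 294 and 337 CPM. The ribosomal protein list was also lower in 30 of 34 genes, by less, with a median of -0.21. RPS2 stood at 3729 and 2639 CPM. By contrast, 12 of 15 snoRNA host transcripts, spliced RNAs whose introns yield small nucleolar RNAs, were higher, with a median of 0.43. GAS5 stood at 532 and 999 CPM and ZFAS1 at 694 and 1213 CPM.

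Inhibitors of the cell cycle were higher in 13 of 19 genes and more than 2-fold higher in 3, beside 58.9% and 5.56% of all genes compared. Of the 19, 6 were compared only through their level at 72 h and so had to be higher, among them CDKN1C. The median was 0.37, or 0.08 with 10 of 18 higher under the trimmed mean of M values. The list linked to glucose sensing and quiescence had 13 of 14 genes higher, 6 past 2-fold (beside 5.56% of all genes compared) and a median of 0.71. Of the 14, 3 were compared only through their level at 72 h and so had to be higher. CDKN1C, the inhibitor p57, stood at 4.13 CPM at 0 h and 13.4 CPM at 72 h, 3.25-fold higher (2.92 to 3.62). TSC22D3, a glucocorticoid-responsive leucine zipper protein, stood at 37.9 and 93.5 CPM, and GADD45B, a stress adaptor, at 49.0 and 112 CPM. CDKN1A, the inhibitor p21, stayed low at 8.10 and 12.7 CPM. TXNIP, a glucose-responsive arrestin, had 1 UMI at 0 h and 0 at 72 h, a level at or under the floor in both.

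Glycolysis genes were lower. Of 15 compared, 13 were lower, while 58.9% of all genes compared were higher, and the median was -0.65. Both other scalings lower every ratio, so the 13 stayed lower by construction, and the other 2 stayed higher. LDHA, lactate dehydrogenase, stood at 1155 CPM at 0 h and 579 CPM at 72 h, 1.99-fold lower (1.97 to 2.01). PKM, pyruvate kinase, stood at 640 and 319 CPM, and ALDOA at 21.3 and 11.9 CPM. The hexokinases, which open the pathway, went the other way, HK2 at 10.5 and 20.1 CPM and HK1 at 52.2 and 70.9 CPM. The median thinned cell held 36 UMIs of the list at 0 h and 22 at 72 h. The hypoxia-type list, which shares targets of HIF1 with glycolysis, had no common direction, with 7 genes higher and 9 lower. In it CA9 stood at 66.9 and 14.2 CPM and BNIP3, a mitophagy receptor, at 60.8 and 30.1 CPM, while PFKFB3, a regulator of glycolytic flux, was 1.70-fold higher. Its median of -0.05 changed sign between settings.

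Cholesterol synthesis genes were lower in 18 of 22 genes, while 58.9% of all genes compared were higher. The median was -0.50, and 3 were lower by more than 2-fold (beside 1.48% of all genes compared). Of the 22, 2 were compared only through their level at 0 h and so had to be lower, INSIG1 among them. Another 1 was compared only through 72 h and had to be higher. INSIG1, which retains the SREBP complex in the ER, stood at 17.8 CPM at 0 h and 7.70 CPM at 72 h, 2.31-fold lower (2.12 to 2.52). IDI1, an isopentenyl diphosphate isomerase, stood at 124 and 59.5 CPM and SQLE, squalene epoxidase, at 75.4 and 37.9 CPM. Fatty acid synthesis had 11 of 16 genes higher and a median of 0.19, but 8 of 16 and a median of -0.05 under the trimmed mean of M values. ACACA, acetyl-CoA carboxylase 1 and a target of the inhibitor used elsewhere in the study, stood at 43.2 and 57.7 CPM without drug. Its log2 ratio of 0.42 was -0.10 in cells matched for nuclear-retained RNA (20 to 60 UMIs of 5000), where the list's median was also -0.10. Fatty acid oxidation had 14 of 16 higher, median 0.25, with ECI2, an enoyl-CoA isomerase, at 56.6 and 108 CPM, and 8 of 16 under that scaling, with a median of -0.03 under median-of-ratios scaling.

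Interferon-stimulated genes were higher at 72 h in cells to which no interferon was added, as far as the labels say. Of 43 listed genes only 20 reached the expression minimum, and 17 of these were higher and 3 lower. More than 2-fold higher were 7, beside 5.56% of all genes compared, of which 58.9% were higher at all. The median was 0.78. Listed genes under the minimum, such as IFIT1, were low in both libraries. Of the 20, 5 passed only through their level at 72 h and so had to be higher, IFITM2 among them. Under the trimmed mean of M values 13 of 19 were higher, with a median of 0.32. After BST2, IFITM2 had the highest ratio, at 3.53 CPM at 0 h and 10.6 CPM at 72 h, with reads that could be split with its close paralog IFITM3. IRF1, a transcription factor of the response, stood at 40.8 and 97.4 CPM, and UBE2L6, an ISG15-conjugating enzyme, at 35.6 and 80.9 CPM. In thinned cells, 5.49% at 0 h and 29.5% at 72 h held more than 7 UMIs of the list.

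Their promoters were searched for GAAANNGAA, the core of the interferon-stimulated response element, on both strands. It was found in 21 of 34 interferon-stimulated genes with a window (61.8%) and in 7 of 12 genes of MHC class I presentation (58.3%), beside 6.13% of compared genes and 8.29% of all windows. Among genes more than 2-fold higher the share was 6.23%. Listed genes were searched whether or not they reached the expression minimum. Of the holders, IFIT1, IFI6, IFI44 and others were under it in both libraries, and DTX3L, SAMD9 and TAP2 were lower at 72 h. The 200 bases before the start are shown for BST2 (chr19:17405631-17405830, - strand), ISG15 (chr1:1013297-1013496, + strand) and IFITM3 (chr11:320861-321060, - strand), since they hold several matches, in capitals.
BST2: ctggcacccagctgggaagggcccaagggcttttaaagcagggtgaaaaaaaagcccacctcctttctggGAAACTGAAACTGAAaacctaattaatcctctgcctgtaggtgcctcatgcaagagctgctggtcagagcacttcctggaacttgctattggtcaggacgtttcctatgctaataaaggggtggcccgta
ISG15: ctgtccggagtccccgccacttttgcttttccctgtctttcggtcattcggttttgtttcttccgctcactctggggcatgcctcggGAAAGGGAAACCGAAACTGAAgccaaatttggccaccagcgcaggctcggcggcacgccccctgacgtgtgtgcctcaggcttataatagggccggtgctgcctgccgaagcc
IFITM3: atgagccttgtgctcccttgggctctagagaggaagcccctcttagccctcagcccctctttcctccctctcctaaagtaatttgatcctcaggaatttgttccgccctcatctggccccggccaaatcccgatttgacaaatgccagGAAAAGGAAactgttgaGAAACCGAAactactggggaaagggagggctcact
BST2 holds 2 matches that overlap each other, 130 and 124 bases before the start, ISG15 holds 3 overlapping matches, the first 113 bases before the start, and IFITM3 holds 2 separate matches, at 52 and 35 bases. ISG15, a ubiquitin-like protein, stood at 64.4 and 118 CPM and IFITM3, which blocks viral entry, at 200 and 353 CPM.

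MHC class I presentation had 12 of 13 genes higher and 2 past 2-fold, beside 58.9% and 5.56% of all genes compared. The median was 0.47, with 10 of 12 higher under the trimmed mean of M values. PSMB9, an immunoproteasome subunit, stood at 55.8 CPM at 0 h and 135 CPM at 72 h, and HLA-B, a class I heavy chain, at 270 and 444 CPM. Of the NF-kB and cytokine genes, 10 of 14 were higher and 3 past 2-fold, beside 58.9% and 5.56% of all genes compared. The median was 0.47, and under the trimmed mean of M values 0.26 with 8 of 13 higher. TNFSF10, the death ligand TRAIL, stood at 47.0 and 185 CPM, 3.94-fold higher (3.82 to 4.06), and was detected in 19.4% and 54.2% of thinned cells. Its receptor TNFRSF10B stood at 13.0 and 29.8 CPM. ICAM1, an adhesion molecule for leukocytes, stood at 14.9 and 35.3 CPM. The string GGANTTTCC, an NF-kB site, was found in 12 of 24 genes of this list with a window (50%). It was found in 1.57% of compared genes and 1.64% of all windows. The 200 bases before the start of ICAM1 (chr19:10270920-10271119, + strand) carry it 186 bases before the start, in capitals.
ICAM1: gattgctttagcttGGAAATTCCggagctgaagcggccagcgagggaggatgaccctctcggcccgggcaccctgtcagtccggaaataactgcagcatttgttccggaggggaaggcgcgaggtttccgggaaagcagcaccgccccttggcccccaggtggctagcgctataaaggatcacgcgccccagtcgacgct
The chemokine genes CXCL8, CXCL1 and CXCL2, which hold the same string, were not uniformly higher. CXCL8 stood at 14.4 and 10.9 CPM, CXCL1 at 7.37 and 3.74 CPM and CXCL2 at 2.41 and 3.95 CPM. CXCL1, CXCL2, IL6, LTB and other holders were under the expression minimum in both libraries. Of the holders that reached it, ICAM1 and NFKBIA were higher and CXCL8 and NFKB1 lower.

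Genes of calprotectin and antimicrobial defence had the highest median of the lists with 5 or more genes, 0.90. All 11 compared genes were higher and 5 more than 2-fold higher, beside 58.9% and 5.56% of all genes compared. PGLYRP4, a peptidoglycan recognition protein at 1.79 and 12.5 CPM, was compared only through 72 h and so had to be higher. Under the trimmed mean of M values 10 of 11 were higher. S100A9 and S100A8, which form calprotectin, stood at 6076 CPM at 0 h and 11356 CPM at 72 h, and at 890 and 1790 CPM. S100A7, or psoriasin, stood at 1511 and 2493 CPM. The acute phase proteins SAA1 and SAA2 were 2.19-fold and 2.44-fold higher, and DEFB1, a beta-defensin, stood at 34.5 and 75.9 CPM. The share of thinned cells with any S100A8 UMI was 82.3% and 85.3%. The 90th percentile was 11 UMIs of 5000 at 0 h and 23 at 72 h, the median 3 and 5. The Fano factor (variance over mean across thinned cells, which also moves with the mean) of S100A8 was 6.71 and 17.8, that of S100A9 13.8 and 28.7 and that of S100A7 13.8 and 28.3. The top 10% of cells held 37.7% and 42.1% of S100A8 UMIs, 38.8% and 44.9% of S100A7 UMIs, and a nearly equal 24.46% and 24.99% of S100A9 UMIs.

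**Figure D3:**
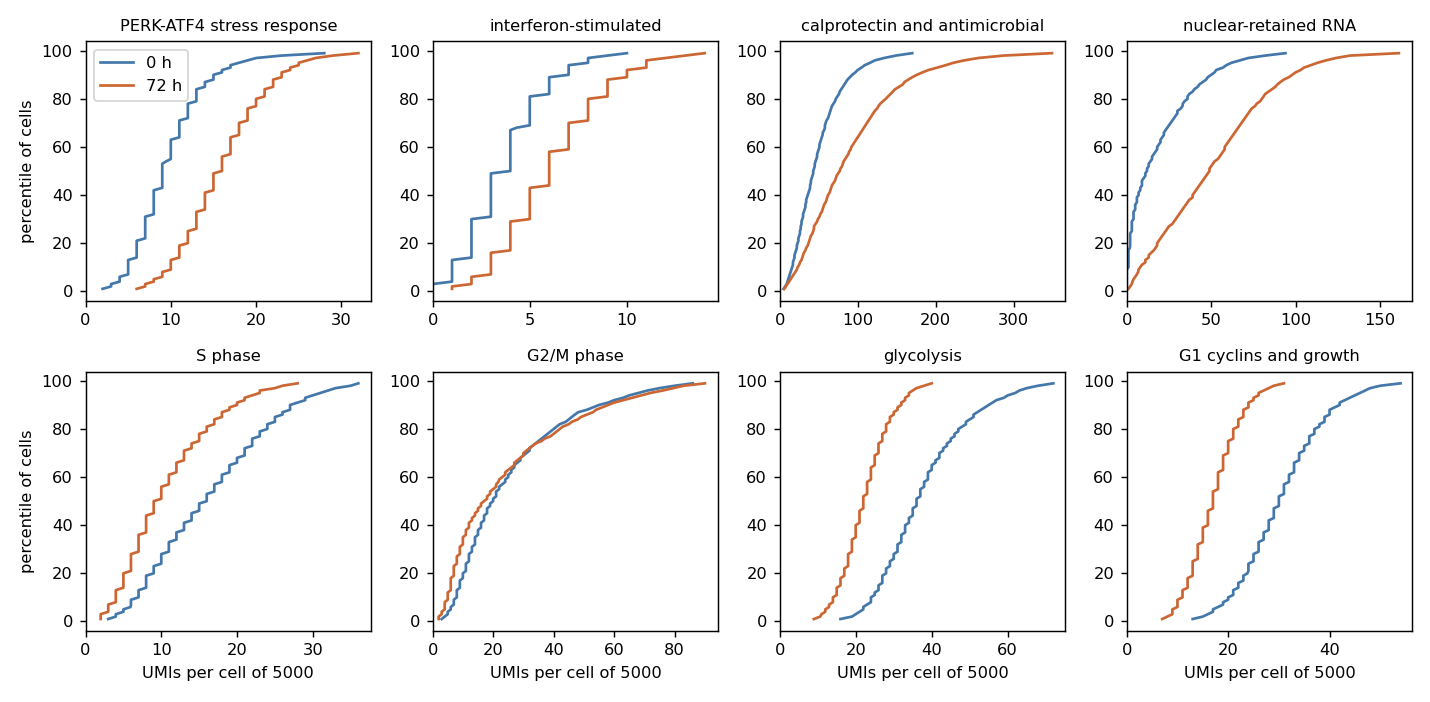
Percentile of thinned cells (5000 UMIs each) against the UMIs of 8 gene lists per cell, at 0 h (blue) and 72 h (orange). The PERK-ATF4 curve lies to the right at 72 h along its length, with a median of 16 UMIs against 9, the calprotectin curve spreads most at its upper end, the glycolysis and growth curves lie to the left, and the G2/M curves cross.

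The PERK-ATF4, glycolysis and growth differences were spread over the whole population. The median thinned cell held 9 PERK-ATF4 UMIs at 0 h and 16 at 72 h, the 10th percentile at 72 h was 10, and 50.8% of cells at 72 h exceeded the 0 h 90th percentile of 15. For the calprotectin list the 10th percentiles were 16 and 23 UMIs and the 90th percentiles 93 and 176. KRT16, a stress keratin, was lower in sum, at 55.3 and 42.5 CPM, yet its Fano factor was 2.64 and 13.5, with up to 84 UMIs in 1 cell at 72 h and 80.9% of its UMIs in the top 10% of cells. PLCG2, a phospholipase, had the highest Fano factor at 0 h, 41.3, with up to 233 UMIs in 1 cell, and 6.85 at 72 h. It was 1.13 at 0 h when only cells of at least 10000 UMIs were kept and thinned to 10000, so the higher value rested on cells of fewer UMIs. Pearson's r between the PERK-ATF4 and snoRNA host sums was 0.43 at 0 h (3700 cells) and 0.27 at 72 h (2885 cells), and between the ribosomal protein and nuclear RNA sums -0.59 and -0.44. All cells of a library share its preparation and a fixed total, so these are descriptions.

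Genes of the NRF2 and glutathione list detoxify electrophiles and peroxides. Of 22 members 21 were higher and 5 past 2-fold, beside 58.9% and 5.56% of all genes compared. The median was 0.51, and 16 of 22 were higher under the trimmed mean of M values. Of the 22, 3 were compared only through their level at 72 h and so had to be higher, AKR1C3 among them. After AKR1C3, AKR1B10 stood at 50.9 CPM at 0 h and 189 CPM at 72 h and AKR1C2 at 114 and 405 CPM. AKR1C2 was detected in 31.6% and 65.9% of thinned cells. GPX4, which reduces lipid peroxides, stood at 272 and 467 CPM, and NQO1, a quinone reductase, at 327 and 445 CPM. The exception was TXN, thioredoxin, at 1178 and 959.5 CPM. The 4 compared metallothioneins, which bind zinc, were higher, MT1F at 56.9 and 121 CPM and MT2A at 2618 and 2737 CPM, the latter ratio of 0.06 being below 0 under both other scalings. Cytosolic heat shock genes were lower in 12 of 17, HSPA8 at 930 and 453 CPM, while the small heat shock protein HSPB1 stood at 197 and 589 CPM, 2.98-fold higher (2.94 to 3.03). Of 34 autophagy and lysosome genes 31 were higher and the median was 0.29, with 19 higher under the trimmed mean of M values. The cysteine proteases CTSS and CTSL were 2.90-fold and 2.70-fold higher.

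Basal epithelial genes were lower in 14 of 19, 8 by more than 2-fold (beside 1.48% of all genes compared), with a median of -0.38. Of the 19, 3 were compared only through their level at 0 h and so had to be lower, KRT6A and KRT14 among them. Another 1 was compared only through 72 h and had to be higher. KRT5, the basal keratin, stood at 331 CPM at 0 h and 113 CPM at 72 h, 2.92-fold lower (2.86 to 2.98), and was detected in 73.1% and 38.0% of thinned cells. S100A2, a calcium-binding protein of basal cells, stood at 167 and 50.9 CPM, and KRT14, the partner of KRT5, at 15.7 and 7.27 CPM. LAMB3 and ITGB4, a laminin chain and the integrin that anchor cells to the basement membrane, were -1.82 and -1.11 on the log2 scale. KRT17 stood at 442 and 375 CPM, and CDH3, P-cadherin, was higher at 14.1 and 28.1 CPM. The basal list thus held both directions, and it shares KRT6A, KRT6B and KRT16 with the keratinocyte differentiation list. The median of the luminal list was 0.08, or -0.16 under the trimmed mean of M values. The list had 9 of 15 genes higher, beside 58.9% of all genes compared. Among its keratins KRT19 stood at 3917 and 2320 CPM and KRT7 at 1873 and 1215 CPM, while MUC1, an apical mucin, stood at 37.2 and 58.9 CPM.

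Of 22 junction genes 15 were higher, beside 58.9% of all genes compared. Their median was 0.28, or 0.04 with 12 of 23 higher under the trimmed mean of M values, and -0.01 under median-of-ratios scaling. The claudins CLDN4, CLDN3 and CLDN1 of tight junctions stood at 94.2 and 197, 43.2 and 94.4, and 8.20 and 19.1 CPM. PKP3, a desmosomal plakophilin, was the member past 2-fold lower, at 57.8 and 23.1 CPM. In the keratinocyte differentiation list 6 of 16 were higher, among them ZNF750, an epidermal differentiation factor, at 9.02 and 26.8 CPM. Few mesenchymal genes reached the minimum, 7 of 23, and their median of 0.10 was -0.29 under the trimmed mean of M values. VIM, vimentin, stood at 13.9 and 2.16 CPM, 6.44-fold lower (5.56 to 7.49). VIM was compared only through its level at 0 h and so had to be lower. Among integrins, matrix proteins and proteases 12 of 19 were higher. More than 2-fold lower were 4, led by MMP7, beside 1.48% of all genes compared. Of the 19, 3 were compared only through 0 h and had to be lower, and 2 only through 72 h and had to be higher. The median was 0.26, or -0.03 under median-of-ratios scaling.

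Of 20 immediate early genes 17 were higher and 4 past 2-fold, beside 58.9% and 5.56% of all genes compared. The median was 0.52, with 14 higher under the trimmed mean of M values. FOSB stood at 31.4 CPM at 0 h and 94.2 CPM at 72 h, NR4A1 at 31.1 and 71.0 CPM, JUNB at 184 and 380 CPM and FOS at 101 and 206 CPM. These transcription factors also answer to handling, and both libraries were made from cells released with trypsin. EGFR-MAPK feedback genes had 10 of 16 higher, beside 58.9% of all genes compared, and none past 2-fold. DUSP5, a MAPK phosphatase, stood at 27.6 and 54.3 CPM. Of the EGF ligands and ERBB receptors 5 of 12 were compared. The medians of both lists, 0.18 and 0.20, were -0.06 and -0.04 under the trimmed mean of M values. ERBB2 was 2.25-fold higher, TGFA stood at 16.6 and 24.2 CPM and AREG, amphiregulin, at 38.3 and 27.3 CPM.

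Of the 13 mitochondrially encoded genes 12 were higher, with a median of 0.19, but 5 under the trimmed mean of M values, with a median of -0.05. The nuclear-encoded respiratory chain had 14 of 39 higher and a median of -0.05, the YAP-TEAD targets 11 of 18 and 0.08 (-0.16 under the trimmed mean of M values), and the actin and SRF-type genes 9 of 23 and -0.11, with TPM4, a tropomyosin, 2.08-fold higher. Ferritin and iron genes had 7 of 9 higher and a median of 0.21, lipid droplet genes 7 of 9 and 0.34, and apoptosis regulators 13 of 20 and 0.21. Over all genes compared, 58.9% were higher. Under the trimmed mean of M values the ferritin and the apoptosis medians were both -0.03. The signs of all of these medians except those of the lipid droplet and actin lists differed between settings.

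Nuclear-retained RNA was higher at 72 h. The 5 listed transcripts summed to 4058 CPM at 0 h and 10048 CPM at 72 h. MALAT1 (chr11:65497688-65506516, + strand), a long noncoding RNA of nuclear speckles, stood at 3454 CPM at 0 h and 8571 CPM at 72 h, 2.48-fold higher (2.47 to 2.49). NEAT1, the scaffold of paraspeckles, stood at 427 and 1192 CPM. MALAT1 was undetected in more cells at 0 h, with 85.4% of thinned cells positive and a median of 9 UMIs, than at 72 h, with 98.5% and 41 UMIs. The ratio of protein-coding genes also moved with genomic span. The median log2 ratio was -0.07 in the eighth of these genes with the shortest span (0.207 to 7.58 kb) and 0.29 in that with the longest (148 to 2173 kb). Long noncoding RNAs were higher, with a median of 0.67 over 151 lincRNAs and 0.60 over 147 antisense genes, and 31.1% and 25.2% of these were more than 2-fold higher, against 4.69% of 8925 protein-coding genes. Whether intronic reads were counted is not given in the sources used here, and the part of nuclear RNA in the other differences was not tested. In cells holding 20 to 60 nuclear-retained UMIs of 5000, 1224 at 0 h and 1187 at 72 h, 348 genes were more than 2-fold higher and 246 lower. There the PERK-ATF4 median was 0.83, the interferon median 0.82, the calprotectin median 1.17, the S phase median -0.74 and the glycolysis median -0.55, while the median of the quiescence-linked list was 0.28 and that of YAP-TEAD targets -0.36.

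The same genes were read in the drug-treated libraries, which are set side by side without a comparison because they share these untreated libraries as controls. KRT6A stood at 52.2 CPM at 0 h and 83.9 CPM after 6 h of PF0517515, and at 4.15, 2.55 and 6.18 CPM in the 72 h untreated, 72 h inhibitor and recovery libraries. CAV1 stood at 279 and 312 CPM in the first pair and at 60.8, 55.7 and 86.1 CPM in the later 3. LEMD1 stood at 28.2 and 34.4 CPM, then at 177, 160 and 192 CPM, and PDZK1IP1 at 46.8 and 41.7 CPM, then at 230, 246 and 379 CPM. The first 4 genes were chosen for their ratio between the untreated libraries, so that difference is a description. The untreated DDIT3 levels of 18.5 and 59.7 CPM stood beside 71.6 CPM after 6 h of drug, 213 CPM after 72 h and 435 CPM in recovery. S100A9 was highest in untreated cells of 72 h, 11356 CPM after 6076 CPM at 0 h, with 4871, 1119 and 9220 CPM in the treated libraries in that order.

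**Figure D4:**
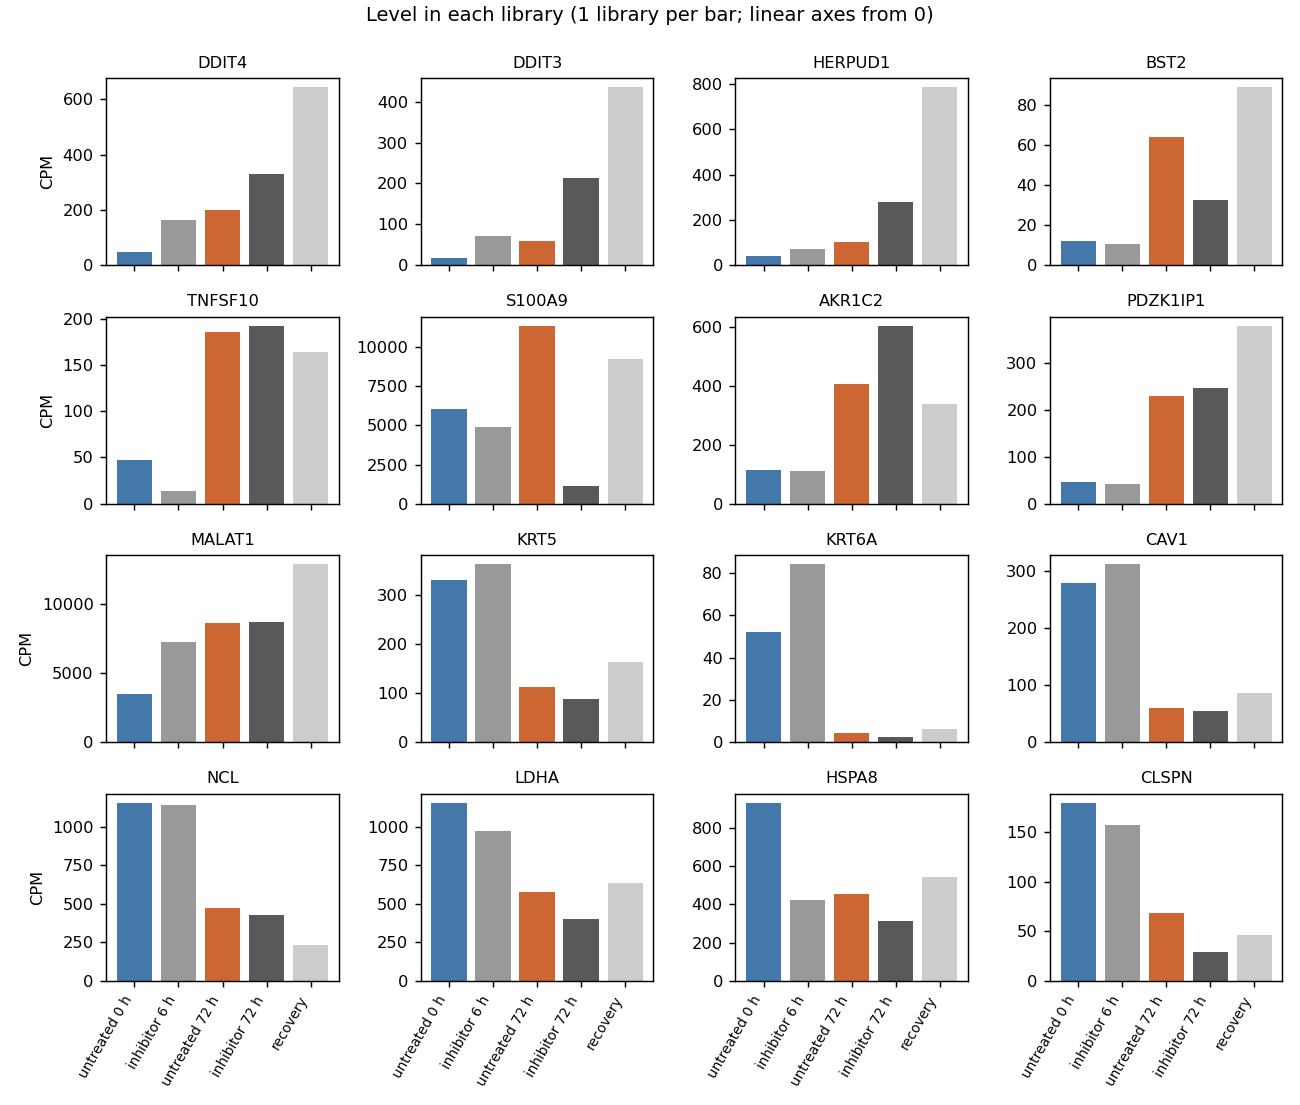
Level of 16 genes in each of the 5 libraries (CPM, linear axes from 0, 1 library per bar); blue is untreated 0 h and orange untreated 72 h. KRT6A, CAV1 and KRT5 are low in the 3 later libraries, TNFSF10 and PDZK1IP1 are high in them, and S100A9 is highest at 72 h untreated (11356 CPM).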

How the data were processed

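RNA of single MDA-MB-468 cells was measured in 5 libraries. Per the labels' protocols, cells were released with trypsin and polyadenylated RNA was captured with a 10x 3′ kit. The authors deposited raw UMI counts of 36601 features per barcode, made with Cell Ranger 7.1.0 on GRCh38, per the submitters' processing notes. Which annotation release was used, and whether intronic reads and strand counted, is not given in the sources used here. The 3′ counts do not allow levels to be compared between genes.

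UMIs were summed over the kept cells of each library (93898612 at 72 h and 114350566 at 0 h) and divided by the library's total. In such sums fewer cells of a type and less RNA per cell cannot be told apart. A ratio of sums has an exact Clopper-Pearson 95% interval, and shares of cells have the same kind of interval. With 1 library per group no test was possible, and a gene past 2-fold was counted as different. A level at or under 3 counts in both libraries has no ratio. For values per cell, 5000 UMIs were drawn from each cell. No doublet caller was run, and cells were not clustered. Medians were taken for lists with at least 5 compared genes.

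The rule for named genes took the 15 highest and 15 lowest ratios at 20 CPM or more without LINC, clone-style and mitochondrial names, up to 4 genes per list with the largest ratios, 19 fixed genes and the 10 with the largest Fano factor per library. Further list members were named after their values were seen, and the promoters shown were chosen because they hold the string searched. The comparison, its members and the lists were chosen with earlier results of these data known. Genomic positions and types came from GENCODE 29, which matched 9290 of 9303 genes by identifier. Scripts used Python 3.11.15, numpy 2.4.6, scipy 1.17.1 and pandas 2.3.3 and were tested on simulated data.

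Alternatives were other cell limits, 2 other scalings, other totals, equal weight per cell, thinned cells, other expression minimums and cells low in both cell cycle lists. Cells of 20 to 60 nuclear-retained UMIs were added after seeing the data. Values of some listed genes are not reported here.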

Additional observations from a re-analysis of the deposited data

How the results depend on the processing

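The counts of genes more than 2-fold higher and lower, 517 and 138, were 216 and 345 under median-of-ratios scaling and 244 and 285 under the trimmed mean of M values. They were 4707 and 1069 with no expression minimum, 122 and 61 with a minimum of 50 CPM, and in cells of 20 to 60 nuclear-retained UMIs, a setting chosen after seeing the data, 246 genes were lower. Without a minimum or with a higher one the number of genes compared changes by construction; a scaling moves every ratio by 1 constant by construction, and for the matched cells the cause was not tested. Of 93 named genes past 2-fold, all 93 kept their sign in every alternative run, which for the 2 other scalings was so by construction. Past 2-fold stayed 74 under the trimmed mean of M values, 70 under median-of-ratios scaling and 81 in the matched cells. Of 38 list medians, 22 kept their sign in every one of the 13 alternatives that gave them a median. The minimum of 50 CPM gave none for the EGF and ERBB, hypoxia, lipid droplet and mesenchymal lists. The median of ER chaperones was -0.0454, that of fatty acid oxidation -0.0344 and that of mitochondrially encoded genes -0.10 under median-of-ratios scaling, and the last was -0.0515 under the trimmed mean of M values. At 10000 UMIs per cell, 28.4% of cells at 0 h and 11.4% at 72 h were high in S phase UMIs alone. No paired analysis was possible because each group is 1 library without a replicate number, and leaving out a replicate was not possible for the same reason. The spread between cultures of 1 condition was not measured, so no difference here has a replicate check.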

Other observations

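The median Fano factor over cells was 1.05 in each, over 6118 genes at 0 h and 6586 at 72 h of at least 0.1 UMIs per thinned cell, and 92 and 90 genes exceeded 2. Among the 10 highest at 72 h, FTH1, the ferritin heavy chain, had a Fano factor of 15.1 at 0 h and 27.8 at 72 h, and MT2A one of 5.27 and 11.4. GADD45A, a stress-induced cell cycle inhibitor named after its values were seen, went the other way, with 5.95 and 2.91, although its summed level was 104 CPM at 0 h and 197 CPM at 72 h.

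Across chromosomes the median log2 ratio lay between 0.04 on chromosome 22 and 0.20 on chromosome 21. Within 4 classes of level, protein-coding genes of the shortest span had medians of 0.03, -0.04, -0.08 and -0.08, and those of the longest span 0.32, 0.27, 0.27 and 0.15.

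Of the other strings searched in promoters, the cAMP response element TGACGTCA was found in 2 of 18 immediate early genes with a window and in 3.58% of compared genes. The AP-1 string TGANTCA was found in 9.01% of genes more than 2-fold lower and 5.69% of those more than 2-fold higher, beside 4.05% of compared genes. It was found in 0 of 18 immediate early genes and in 3 of 12 genes of the calprotectin list, LCN2, RNASE7 and S100A12. Of these RNASE7 had 0 UMIs in both libraries and S100A12 stood at 0.883 and 1.22 CPM, under the minimum.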
